A study of Mus musculus with 6 samples.

Results

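The genes described here build the hair and its sheath: the keratins of the inner root sheath, companion layer and hair shaft, and the keratin-associated proteins (KRTAP), which fill the space between keratin filaments in the shaft. They were chosen by gene name alone, as every gene whose symbol starts with Krtap and every keratin from a fixed list of 19 follicle keratins. This gave 75 of the 47729 genes of the deposited table, 18 keratins and 57 KRTAP genes, while Krt85 of the list was not analysed here. The libraries were made from mRNA of epidermis of wild type C57BL/6 mice, 3 from skin given AKBA gel and 3 from skin given control gel, a blank gel. AKBA is a boswellic acid derivative of Boswellia resin. The labels give no age, sex, dose, time or number of mice. They also do not say whether each library is from its own mouse, so a p-value here reflects the variation of 6 libraries, part of which can be technical. The letters IMQ in the descriptions of the control libraries are not spelled out, and the sources used here do not say whether the skin had another treatment.

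A hair grows from the matrix at the base of the follicle, where dividing cells turn into the layers of the inner root sheath and of the shaft. Keratin filaments form from pairs of a type I and a type II keratin, and each layer of the follicle uses its own pairs. In the shaft, KRTAP proteins rich in cysteine cross-link the filaments through disulfide bonds. Follicles pass through growth, regression and rest, and the keratin and KRTAP genes of the shaft and inner root sheath are known to be transcribed in growing follicles. In whole tissue, fewer cells of a type and less RNA per cell cannot be told apart.

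The genes lie in blocks. On chromosome 11, 23 KRTAP genes lie between 99550130 and 99993994 beside 10 type I keratins (99315516 to 100096241), and the 8 type II keratins lie on chromosome 15 (101431038 to 101802346, GENCODE M21 on GRCm38). The other KRTAP genes are on chromosomes 16 (25 genes), 7 (5), 10 (2) and 1 (2). RefSeq promoter sequences (GRCm38.p6, 250 bases before to 50 bases after the start) were matched for 64 of the 75 genes. The promoters below are those of the inner root sheath pair with the highest levels, of a shaft keratin, and of a pair of KRTAP genes with identical coding sequences whose levels took different courses across the libraries. They are on the minus strand, at chr11:99322902-99323201 (Krt25), chr15:101743048-101743347 (Krt71), chr11:100029819-100030118 (Krt33b), chr11:99556804-99557103 (Krtap3-2) and chr11:99550814-99551113 (Krtap3-3). Capitals mark the TATA box letters TATAAA.
Krt25: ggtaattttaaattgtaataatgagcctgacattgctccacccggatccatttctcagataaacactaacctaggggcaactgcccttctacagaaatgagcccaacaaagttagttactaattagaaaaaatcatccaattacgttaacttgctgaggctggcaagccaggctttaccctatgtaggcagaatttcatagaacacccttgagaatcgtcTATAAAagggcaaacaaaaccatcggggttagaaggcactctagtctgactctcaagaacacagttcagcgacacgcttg
Krt71: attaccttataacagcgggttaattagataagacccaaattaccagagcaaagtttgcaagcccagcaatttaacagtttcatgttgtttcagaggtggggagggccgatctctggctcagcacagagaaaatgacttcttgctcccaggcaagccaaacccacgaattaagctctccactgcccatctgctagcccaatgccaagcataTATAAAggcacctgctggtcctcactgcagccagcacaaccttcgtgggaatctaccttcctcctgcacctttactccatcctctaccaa
Krt33b: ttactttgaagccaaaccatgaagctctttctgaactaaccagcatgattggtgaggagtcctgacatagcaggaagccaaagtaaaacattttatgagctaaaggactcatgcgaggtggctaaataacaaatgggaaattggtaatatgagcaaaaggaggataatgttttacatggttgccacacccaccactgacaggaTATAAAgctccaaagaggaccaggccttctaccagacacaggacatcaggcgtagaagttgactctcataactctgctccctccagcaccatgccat
Krtap3-2: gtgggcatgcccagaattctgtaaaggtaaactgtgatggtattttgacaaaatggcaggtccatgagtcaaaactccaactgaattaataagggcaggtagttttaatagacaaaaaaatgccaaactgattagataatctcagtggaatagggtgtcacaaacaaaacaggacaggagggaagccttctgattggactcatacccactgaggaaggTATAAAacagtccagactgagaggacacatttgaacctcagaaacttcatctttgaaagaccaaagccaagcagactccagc
Krtap3-3: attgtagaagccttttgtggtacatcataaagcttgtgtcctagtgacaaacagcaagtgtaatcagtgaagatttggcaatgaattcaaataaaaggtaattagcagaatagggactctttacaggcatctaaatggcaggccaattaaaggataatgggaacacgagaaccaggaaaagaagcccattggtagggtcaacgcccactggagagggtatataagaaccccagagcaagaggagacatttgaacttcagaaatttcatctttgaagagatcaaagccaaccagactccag

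TATAAA, searched on both strands, was in 53 of the 64 promoters (82.8%), against 14.2% of all 27025 promoters of the same length. Within the last 50 bases before the start and on the gene's own strand it was in 44 of 64 (68.8%), against 2.88% of all promoters. The windows shown carry it 30 (Krt25), 40 (Krt71), 47 (Krt33b) and 32 (Krtap3-2) bases before the start. The Krtap3-3 window holds no exact TATAAA but reads tatataag, and TATA boxes in other letters were not searched for. The core letters bound by LEF1 and TCF factors, CTTTGA on either strand, which cannot share a base with TATAAA, were in 20 of 64 promoters (31.3%) against 16.2% of all. They were in 4 of the 5 shaft keratin promoters and in 1 of the 7 of the inner root sheath. These are matches of letters and show no binding.

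The libraries held 19066045 to 22760432 counts, so 3 counts, the limit that a count of 0 allows, correspond to 0.128 to 0.159 CPM (counts relative to the scaled size of a library), a limit that covers counting error only. Levels are CPM after scaling between libraries by the trimmed mean of M-values (TMM), and FPKM, the deposited values per kilobase, where genes are compared with each other. Keratinocyte markers were abundant in every library (summed level of 8 genes 44253 to 73098 CPM), and so were fibroblast markers (8 genes, 19227 to 35815 CPM) and skeletal muscle markers (10 genes, 5165 to 9369 CPM), so markers of tissue beneath the epidermis were present. Of the 75 genes, 59 had counts, 51 had at least 10 counts over the 6 libraries, and 22 had enough for the test (120 to 42253 counts). The 22 were all 7 inner root sheath keratins, Krt75, 9 of the 10 shaft keratins and 5 KRTAP genes. The 37 genes below the filter held 1 to 148 counts each, and 16 KRTAP genes had none in any library.

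The hair genes varied many-fold between libraries of the same group, and the AKBA gel and control gel groups overlapped. Summed over all 75 genes, the level was 44.3, 789 and 1725 CPM in AKBA gel libraries 1 to 3 and 228, 2335 and 113 CPM in control gel libraries 1 to 3. The highest library was thus a control library (2), the next an AKBA library (3), and the lowest an AKBA library (1). As a share of all counts the genes took 0.00433% of AKBA library 1 and 0.241% of control library 2. The number of genes with a count moved too, from 19 of 75 in AKBA library 1 and 24 in control library 3 to 56 in both AKBA library 3 and control library 2. These 2 high libraries stand apart from the others in nearly every result below, so fold changes without them are given too. Spreads within groups, library orders and steps between libraries are given with all libraries only.

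Inner root sheath keratins carried most of the signal. Krt71, the type II keratin of all inner root sheath layers, was at 1.91, 257 and 635 CPM with AKBA gel and at 70.6, 896 and 22.6 CPM with control gel. Its type I partner Krt25 was at 1.82, 188 and 404 CPM against 47.0, 573 and 15.2 CPM. Both were low in 1 library and high in another within each group, and the groups overlapped over nearly the whole range. Krt27 and Krt73 took the same course (0.638, 70.0 and 174 against 19.6, 215 and 6.47 CPM for Krt27). Krt72 and Krt26, cuticle keratins of the sheath, were lower, at 0 to 21.2 CPM and 0.0981 to 16.1 CPM. Krt28 varied least among the 7, from 3.78 to 97.6 CPM. Per length, the type I keratins of the sheath summed to 3.59, 169.8 and 398 FPKM with AKBA gel and 49.8, 507 and 14.3 FPKM with control gel. The type II keratins summed to 1.55, 157 and 397 FPKM and 45.0, 527 and 12.4 FPKM, so the sums of the 2 types lay close together in each library but AKBA library 1.

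Krt75, the type II keratin of the companion layer that lies between the inner and the outer root sheath, varied less. It was at 24.9, 56.9 and 90.7 CPM with AKBA gel and at 19.4, 121 and 49.6 CPM with control gel. Control library 3, among the lowest for the sheath and shaft genes, held more Krt75 than control library 1. The order of the genes changed with this: in control library 2 Krt71 was at 423 FPKM and Krt75 at 38.2 FPKM, whereas in AKBA library 1 Krt71 was at 0.86 FPKM and Krt75 at 7.44 FPKM. Krt75 made up 56.1% of the hair gene counts of AKBA library 1 and 43.9% of those of control library 3, against 5.18% to 8.51% in the other libraries. An exon of Krt75 overlaps Gm44460 on the other strand. With no statement on strand in the sources used here, reads from the overlapping stretch cannot be told apart.

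**Figure D1:**
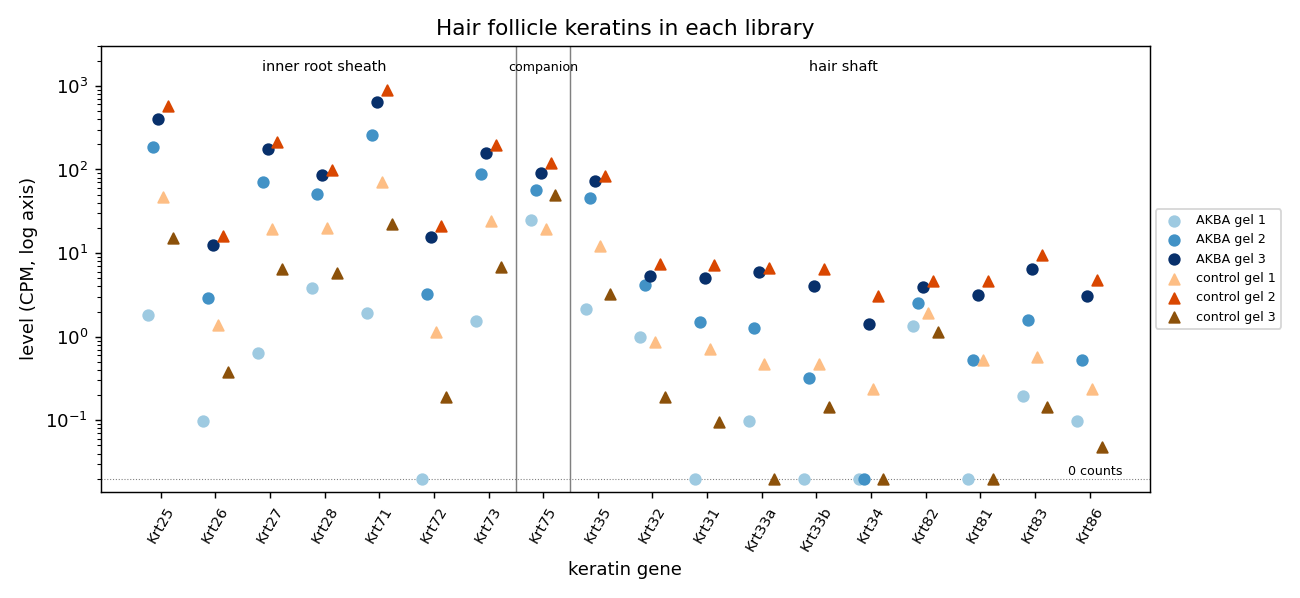
Level of each of the 18 follicle keratins in each library, in CPM on a log axis, grouped by layer, with AKBA gel libraries as circles, control gel libraries as triangles and genes without counts drawn on the dotted line. For every keratin, control gel library 2 is the highest point and AKBA gel library 3 the next, and Krt75 and Krt82 span the shortest ranges.

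Among the shaft keratins, Krt35, a type I keratin of the shaft's matrix and cuticle and one of the first made there, was the most abundant per length, at 0.88, 18.8 and 32.3 FPKM with AKBA gel and 5.11, 35.8 and 1.23 FPKM with control gel. It held 44.4% to 78.6% of the shaft keratin counts of a library. The cortex keratins Krt31, Krt33a, Krt33b, Krt34, Krt81, Krt83 and Krt86 were between 0 and 9.61 CPM. Krt33b, for example, had 0, 6 and 94 counts with AKBA gel and 10, 146 and 3 counts with control gel. Krt34, the shaft keratin left out of the test, had 0, 0 and 33 counts against 5, 70 and 0. In these genes AKBA library 1 and control library 3 were at or near 0, and each group held both a high and a near-empty library. The cuticle keratin Krt82 differed from them in its range, at 1.32, 2.55 and 3.88 CPM against 1.90, 4.58 and 1.15 CPM. Krt32, another cuticle keratin, was at 0.981, 4.15 and 5.37 CPM against 0.857, 7.47 and 0.192 CPM, with an exon that overlaps Gm11571 on the other strand. Krt83 is named Krt87 in GENCODE M21. Krt31, Krt33a, Krt33b, Krt34, Krt81 and Krt86 are at least 90% identical in coding sequence to another of these keratins, so the split of counts between them is uncertain.

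The KRTAP genes were scarce. Summed over 57 genes they reached 4.81, 14.7 and 35.5 CPM with AKBA gel and 7.28, 60.9 and 0.767 CPM with control gel. By the cysteine, glycine and tyrosine codons of their coding sequences, 20 were ultra-high sulfur genes (cysteine at least 30%), 15 were high glycine-tyrosine genes (glycine and tyrosine together at least 35%), 21 the remaining high sulfur genes, and 1 had no coding sequence. Ultra-high sulfur genes had 7, 47 and 336 counts with AKBA gel and 41, 645 and 5 counts with control gel. Of the 15 high glycine-tyrosine genes, 10 had no count in any library, among them Krtap19-1 to Krtap19-5, and Krtap8-1 held most counts of the rest. Thus 2 libraries, 1 of each group, held most KRTAP counts of the ultra-high sulfur and glycine-tyrosine classes.

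Krtap8-1, a short glycine- and tyrosine-rich protein of the cortex, had 0, 11 and 57 counts with AKBA gel and 6, 112 and 0 counts with control gel. Krtap7-1, which by these thresholds fell among the high sulfur genes although its family is usually counted as glycine-tyrosine rich, had 0, 2 and 57 against 8, 80 and 0 counts. Krtap11-1, a high sulfur protein, had 1, 10 and 61 against 9, 81 and 2 counts, and Krtap16-1, another high sulfur gene, 0, 4 and 55 against 6, 82 and 1. In all 4 of these genes the 2 high libraries were AKBA library 3 and control library 2, and the groups overlapped. Among ultra-high sulfur genes, Krtap17-1 had 7, 13 and 38 against 7, 83 and 3 counts, Krtap4-1 0, 6 and 43 against 2, 53 and 0, Krtap28-10 0, 0 and 25 against 2, 57 and 0, and Krtap1-3 0, 4 and 29 against 5, 37 and 0. Krtap17-1 was the only one of these 4 with counts in every library. The scarcest genes the rule named were Krtap22-2 (16 counts in all, 8 of them in control library 2), Krtap6-1 (2) and Krtap21-1 (2).

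The order of the libraries was shared by nearly all genes. Of the 51 with at least 10 counts, 50 (98.0%) were highest in control library 2 and second highest in AKBA library 3. Some of the 51 reached 10 counts mainly through these libraries, as Krtap5-4 with 12 of 13 counts in control library 2. For them the pattern is partly set by the filter. Of the 22 genes tested, 21 (95.5%) had it, against 6.53% of all 17023 genes tested. AKBA library 1 and control library 3 both lay under the other 4 in 37 of the 51 (72.5%). Among the 22 tested it was 18 (81.8%), against 7.82% of all genes tested. These genes share their libraries, so the counts describe 6 libraries and are not 51 separate observations. The gene outside the pattern was Krtap3-2.

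Krtap3-2, a high sulfur gene on chromosome 11 (99555823 to 99556853), had 84, 171 and 52 counts with AKBA gel and 39, 53 and 3 counts with control gel. Its levels were 4.12, 9.09 and 2.22 CPM against 1.86, 2.31 and 0.144 CPM. It was highest in AKBA library 2, and AKBA library 1, at or near 0 for most KRTAP genes, came next. The lowest AKBA library and the highest control library were close to each other, so the groups overlapped slightly. The log2 fold change (AKBA gel over control gel) was 1.82 ± 0.80 (SE, 95% interval -0.04 to 3.67) and did not pass edgeR's quasi-likelihood test with Benjamini-Hochberg adjustment (adjusted p = 0.380, and 0.269 to 0.758 over the alternatives). With 1 library left out in turn it stayed between 1.13 and 2.34. The authors' deposited table gives a log2 fold change of 1.71 for this gene and an adjusted p-value of 0.163. Krtap3-2 made up 85.7% of the KRTAP counts of AKBA library 1 and 61.7% of those of AKBA library 2, against 6.24% in AKBA library 3 and 25.5%, 3.80% and 18.8% in control libraries 1 to 3.

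The nearby Krtap3-3 has the same coding sequence and had 4, 18 and 37 counts with AKBA gel and 9, 52 and 0 counts with control gel. It kept the common order of the 2 high libraries, but AKBA library 2 reached 42.1% of its highest library, against 3.04% to 19.1% for the other 7 KRTAP genes with at least 100 counts (Krtap3-2 aside). Of the 982 windows of 50 bases in the Krtap3-2 transcript, 284 (28.9%) also occur in that of Krtap3-3, so the split of counts between them is uncertain. Their promoter windows, shown above, are 60.7% identical. Krt10, the suprabasal keratin of the epidermis between follicles, had AKBA library 2 highest and AKBA library 1 second as Krtap3-2 did, at 20848, 24254 and 12922 CPM against 13979, 8039 and 7979 CPM. Mt4, a metallothionein of stratified epithelia named after its values were seen, had the same 2 highest libraries (85.0, 149 and 47.3 CPM against 32.3, 15.8 and 6.61 CPM). Of the 8 genes listed for the epidermis between follicles, 4 (Krt10, Krt1, Lor and Flg) had this order, while Krt14, Krt5 and Krtdap were highest in control library 3, where Krtap3-2 was lowest. The part of the epidermis between follicles in the Krtap3-2 counts was not tested.

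Between AKBA gel and control gel, none of the hair genes passed the test. edgeR's quasi-likelihood test called 0 of the 22 tested at an adjusted p of 0.05, and 0% of all 17023 genes. At an unadjusted p under 0.05 it was 0 of 22, against 13.5% of all genes. The groups did not overlap in 0 of 22, whereas among all genes AKBA gel was wholly higher in 9.28% and wholly lower in 9.1%. DESeq2's Wald test called 0 of the 39 hair genes it gave an adjusted p, against 1.65% of all. The authors' deposited table calls 0 of the 75 genes, against 273 of all 47729 genes. Only 48 of the 75 have a log2 fold change other than 0 there. With so small a share called over all genes, the 0 says little about the hair genes.

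The fold changes were small beside their errors. The median log2 fold change of the 22 was -0.14, with 9 above 0 and 13 below, against 0.00 over all genes tested. For Krt71 it was -0.15 ± 1.65 (SE), for Krt25 -0.10 ± 1.59, for Krt35 0.29 ± 1.26, for Krt75 -0.14 ± 0.66 and for Krtap8-1 -0.76 ± 1.48. The 95% intervals reached 3.25 to either side at the median of the 22, against 0.43 for all genes, so changes of several-fold in either direction were not detectable with these libraries. The SD between libraries of a group was 2.57 on the log2 scale at the median, against 0.226 for all genes, and 0.0940% of all genes tested had an SD that high. Krt82 and Krt75 had the narrowest intervals, from -1.28 to 1.33 and from -1.67 to 1.40.

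The fold changes moved with the library left out, and their median moved most with the 2 high libraries. Without AKBA library 3 the median of the hair genes tested was -1.36, with 21 of the 22 below 0 and Krtap3-2 above. Without control library 2 it was 2.40, with all 22 above 0. Leaving out both, an alternative chosen after seeing the data, gave 1.37 over 16 genes, and again 0 genes passed. Krt71 went from -1.32 without AKBA library 3 to 2.66 without control library 2. With another library left out, 44 hair genes passed the filter. Their median was then 0.17 without AKBA library 1 and -0.10 without AKBA library 2. It was -0.78 without control library 1 and -0.95 without control library 3. In the plot of fold changes, 21 of the 22 ranges with 1 library left out cross 0.

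**Figure D2:**
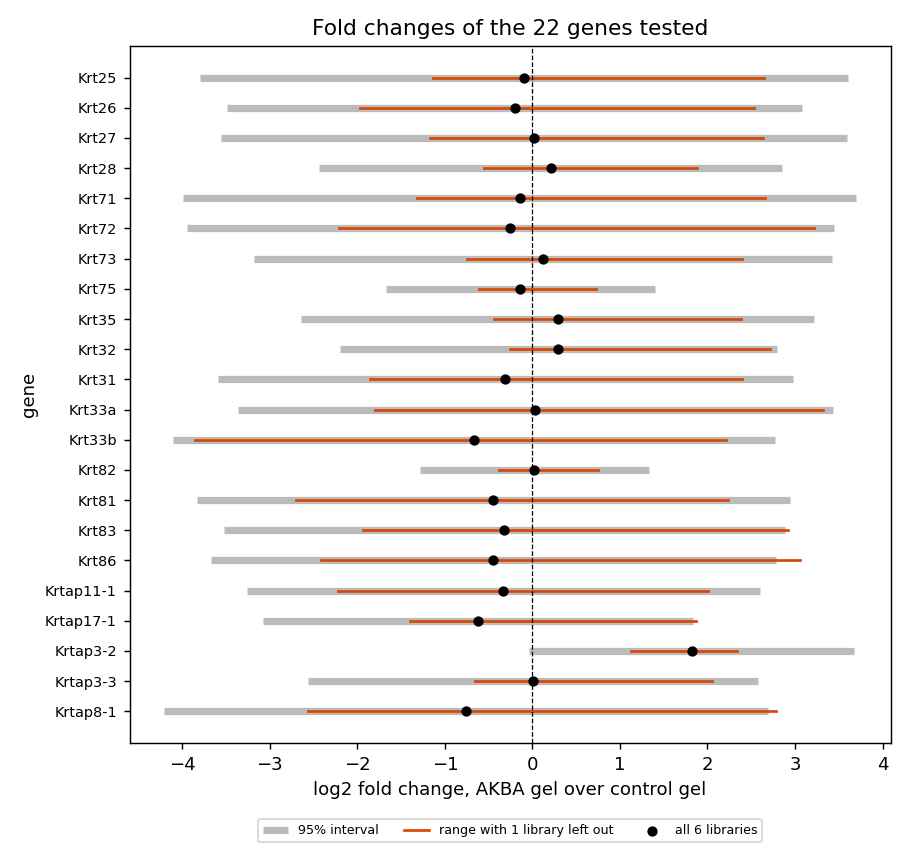
Log2 fold change (AKBA gel over control gel) for the 22 genes tested with edgeR (points), with the 95% interval (grey) and the range of the fold change when each of the 6 libraries is left out in turn (orange). All grey intervals include 0, and only the orange range of Krtap3-2, 1.13 to 2.34, stays on one side of it.

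The ratios between layers differed between libraries, and they depended on a few genes. Over all KRTAP genes there were 49.2, 2.23 and 2.39 counts per 100 inner root sheath keratin counts in AKBA libraries 1 to 3 and 3.97, 3.02 and 1.33 in control libraries 1 to 3. AKBA library 1 stood apart, with 98 KRTAP and 199 sheath keratin counts, and AKBA libraries 2 and 3 had overlapping 95% exact binomial intervals (1.97 to 2.51 and 2.22 to 2.56). With Krtap3-2 left out, chosen after its values were seen, the ratio was 7.04, 0.854 and 2.24 with AKBA gel and 2.96, 2.91 and 1.08 with control gel. AKBA library 2 (0.699 to 1.03) was then below AKBA library 3 (2.08 to 2.40), so its position rests on this gene. Control library 3 was low with Krtap3-2 (0.760 to 2.17) and without it (0.575 to 1.86).

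All shaft keratins together stood at 49.7, 8.81 and 7.44 counts per 100 sheath keratin counts with AKBA gel and at 9.80, 6.83 and 8.67 with control gel. AKBA library 1 was again far above the others, which for this sum lay within a narrow range in both groups. Of the 99 shaft keratin counts of AKBA library 1, 44 were of Krt35, 27 of Krt82 and 20 of Krt32. Its high ratio thus rests on these genes, and the cortex keratins had few counts there. A ratio of the cortex keratins alone was not taken. Without Krt35, also chosen after its values were seen, the ratio was 27.6, 1.89 and 2.57 against 3.27, 2.70 and 3.08, and AKBA library 2 (1.65 to 2.15) went from above AKBA library 3 to below it. Krt35 held 78.6% of the shaft keratin counts of AKBA library 2 and 65.5% of those of AKBA library 3. The intervals cover counting error only, and no test of the groups was made on these ratios.

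**Figure D3:**
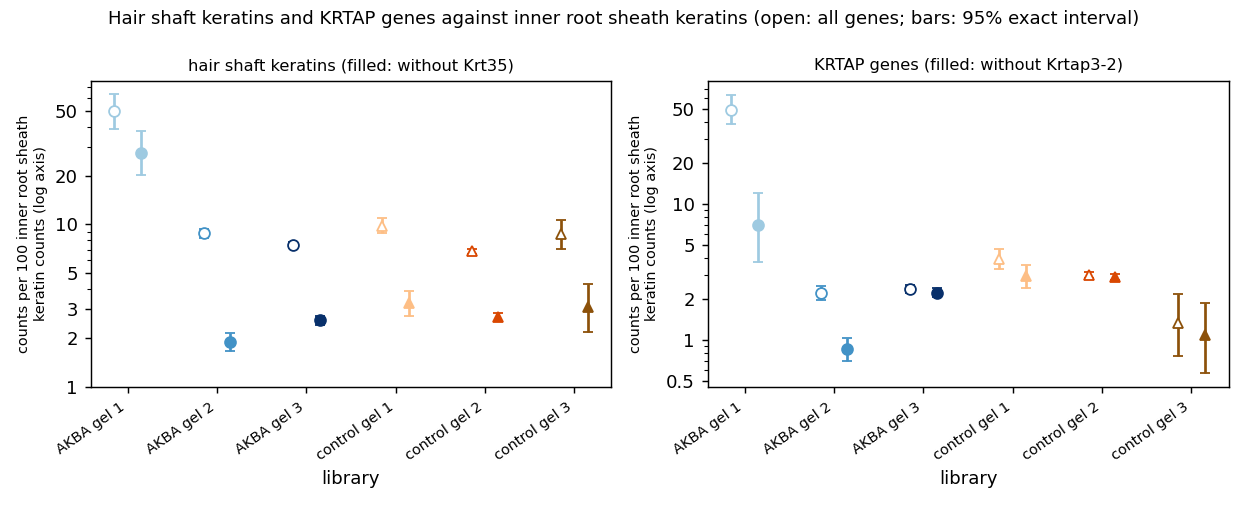
Counts of shaft keratins (left) and of KRTAP genes (right) per 100 inner root sheath keratin counts in each library, on log axes, for all genes (open symbols) and without Krt35 or Krtap3-2 (filled symbols), with 95% exact binomial intervals for counting error. AKBA gel library 1 is highest in both panels, and AKBA gel library 2 is lowest among the filled symbols but not among the open ones.

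Genes of other parts of the follicle, from lists beside the hair genes, moved with them to different degrees. The follicle regulators comprise transcription factors, signals and receptors, a list not limited to genes of the matrix. Vdr was at 124 CPM and Ovol1 at 291 CPM in control library 3, where the sheath keratins were low. At the median over 17 regulators, AKBA library 2 was at 76.6% of AKBA library 3 and control library 1 at 60.2% of control library 2. For the inner root sheath keratins these values were 40.4% and 8.59%, for the shaft keratins 23.2% and 8.82%, and for the 8 KRTAP genes with at least 100 counts other than Krtap3-2 18.9% and 8.59%. By these medians the step down from the high libraries was larger in the structural genes than in the regulators in both groups. The reference libraries, AKBA library 3 and control library 2, were those where the hair genes themselves were highest. A step down in the hair genes is thus set in part by this choice, which the regulators did not enter. The ranges over genes were 55.1% to 156% for the regulators and 20.7% to 59.3% for the sheath keratins in the AKBA pair, and 31.3% to 189% and 5.38% to 20.2% in the control pair. These ranges overlapped in the AKBA pair and not in the control pair. The highest of the KRTAP genes stood at 60.7% and 18.9%, so they too overlapped the regulators in the AKBA pair only. The shaft keratins reached 77.2% and 41.5% and overlapped the regulators in both pairs. So did the 12 other structural genes of the follicle (31.9% to 315% and 6.73% to 204%). The difference in medians thus did not separate all structural genes from the regulators. Msx2, a homeobox regulator of the matrix and shaft chosen after its values were seen, was at 4.37, 17.8 and 24.2 CPM with AKBA gel and 7.76, 24.8 and 2.44 CPM with control gel. Ovol1 went another way, at 169, 181 and 116 CPM with AKBA gel and 157, 161 and 291 CPM with control gel. Ovol1, Foxn1 and Wnt10a were highest in control library 3, Foxq1 in AKBA library 1, and Wnt10b and Gata3 in AKBA library 2. The other tested regulators, Vdr among them, were highest in AKBA library 3 or control library 2. Tchh, trichohyalin of the inner root sheath and medulla, followed the keratins, at 17.0, 238 and 705 CPM against 108, 1110.2 and 47.1 CPM. Tgm3, of the same list of follicle structural genes, did not, at 231, 180 and 163 CPM against 175, 248 and 290 CPM. Hephl1 and Krt84 were, like Tgm3, highest in control library 3, and Mt4 was highest in AKBA library 2. In the other tested genes of this list the 2 highest libraries were AKBA library 3 and control library 2.

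**Figure D4:**
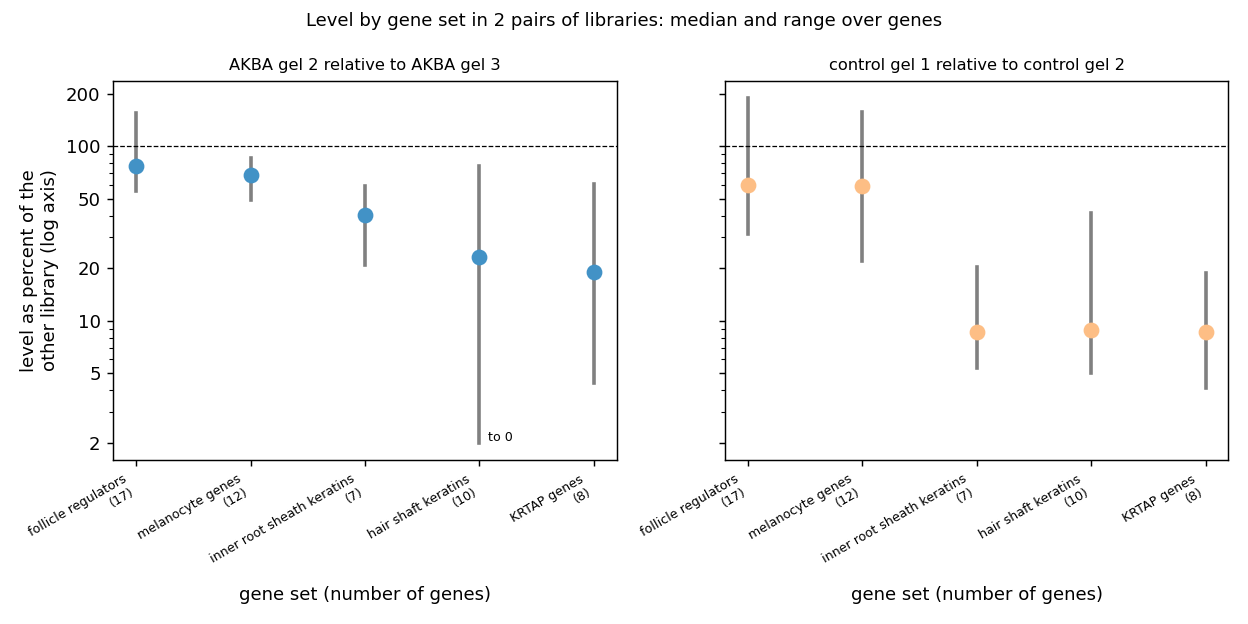
Level in AKBA gel library 2 as a percent of AKBA gel library 3 (left) and in control gel library 1 as a percent of control gel library 2 (right), on a log axis, with the median (point) and the range over genes (line) for follicle regulators, melanocyte genes, inner root sheath keratins, shaft keratins and KRTAP genes. The medians fall from 76.6% for regulators to 18.9% for KRTAP genes on the left and from 60.2% to 8.59% on the right. The reference libraries are those where the hair genes are highest, so low values of the hair genes are partly set by that choice.

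edgeR called 0 genes of each of the 12 lists at an adjusted p of 0.05. At an unadjusted p under 0.05 the share over all genes tested was 13.5%. By list it was 3 of 8 for the epidermis between follicles, 3 of 9 for the bulge and outer root sheath, and 2 of 4 for endothelium. It was 2 of 6 for immune cells, 2 of 10 for sebaceous glands and 2 of 17 for regulators. Other structural genes had 1 of 12, skeletal muscle 1 of 10, and the remaining lists 0. The median log2 fold changes were -0.13 for other structural genes of the follicle (12 tested), 0.27 for regulators (17), 0.42 for the bulge and outer root sheath (9), 0.23 for the dermal papilla (12) and 0.03 for melanocytes (12). They were -0.11 for proliferation (10), 0.46 for the epidermis between follicles (8), 0.68 for sebaceous glands (10), -0.29 for fibroblasts (8), 0.22 for skeletal muscle (10), -0.33 for immune cells (6) and -0.49 for endothelium (4). Krt15, a keratin of the bulge and basal layer, was at 727, 913 and 570.2 CPM with AKBA gel and 502, 219 and 196 CPM with control gel, with a log2 fold change of 1.27 ± 0.38 (SE) and adjusted p = 0.331 by edgeR. It did not follow the hair genes: control library 2 and control library 3, far apart for the hair genes, were close for Krt15, and the groups did not overlap.

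Markers of melanocytes, dermal papilla and dividing cells shared, in their sums, the 2 highest libraries of the hair genes. Summed over 13 melanocyte genes the level was 118, 193 and 283 CPM with AKBA gel and 186, 278 and 115 CPM with control gel, with Dct, a pigment enzyme, at 29.4, 57.3 and 83.2 against 50.9, 81.4 and 30.5 CPM. The 13 dermal papilla genes summed to 73.6, 99.7 and 135 against 101, 137 and 59.4 CPM. The 10 proliferation genes summed to 542, 643 and 916 against 651, 952 and 661 CPM, with Mki67 at 199.9, 206 and 349.7 against 236, 357 and 220.3 CPM. AKBA library 3 and control library 2 were the 2 highest in each of these sums, as for the hair genes, with narrower ranges between libraries. In the proliferation sum, control library 3 lay above control library 1 and AKBA library 2. Single genes differed: Nog, Bmp4 and Rspo3 were highest in AKBA library 2, with Nog lowest in control library 2. Sox18, Mlana and Sox10 were highest in control library 1. The other tested genes of these lists were highest in AKBA library 3 or control library 2. No marker of the 12 lists was at 0 in every library. Sebaceous genes (10, summing to 2557 to 6535 CPM) had AKBA library 1 highest, and the list of the epidermis between follicles had AKBA library 2 highest. The part of these cell types in the hair gene results was not tested.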

How the data were processed

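The deposited table gives, per the file headers, whole-number counts per gene and library, FPKM values made by the authors, and the authors' comparison with a log2 fold change, p-value and FDR per gene. The sources used here do not say whether the counts are rounded estimates. The submitters' processing notes name CASAVA 1.8, RSEM, edgeR and the build GRCm38, with no roles. No per-library column was left unused (0).

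Counts were fitted over all genes with edgeR 4.0.16 in R 4.3.3 (TMM, default filter, 17023 genes, quasi-likelihood F test, 2-sided, Benjamini-Hochberg, threshold 0.05, no covariate). All 6 libraries entered as 2 groups of 3, taken from the titles, with 19066045 to 22760432 counts each. The code was tested on simulated data. CPM used TMM. Intervals of ratios are exact binomial at 95%. KRTAP classes came from codon shares in GENCODE M21 coding sequences. The naming rule took all keratins, the 4 KRTAP genes with the highest mean CPM per class and the 3 tested KRTAP genes with the largest fold change in each direction. It also took 2 genes of each of 12 lists. Not all of these list genes are described, and Mt4, Msx2 and other list genes are described outside the rule. The genes and lists were chosen with earlier results of these data known.

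Alternatives were DESeq2 1.42.0 size factors and Wald test, scaling without the hair genes, no filter, the replicate number as a block, a minimum of 5 CPM in 3 libraries, 1 library left out at a time, and FPKM or raw shares for levels.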

Additional observations from a re-analysis of the deposited data

How the results depend on the processing

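The count of hair genes past the threshold was 0 in every alternative run. Of all genes, edgeR called 0 except without control replicate 1 (14), so that the range with 1 library left out was 0 to 14, and DESeq2's Wald test called 289. The median log2 fold change of the hair genes ranged from -1.36 to 2.40 with 1 library left out, over 22 or 44 genes. It was -0.48 without a filter (59 genes), 0.03 with the stricter filter (7 genes) and -0.56 with DESeq2, and the cause was not tested. Control replicate 3 was at 3.58% of the highest library in FPKM, against 4.83% in CPM.

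The replicate numbers did not pair the libraries: the correlation of same-numbered deviations over genes was 0.072, 0.019 and -0.33. AKBA library 1 correlated best with control library 3, and AKBA library 3 with control library 2. With the replicate block, edgeR again called 0 genes, the median of the hair genes was -0.24, and the sign turned for Krt75 (0.0515), Krt27 (-0.89), Krt28 (-0.0926), Krt73 (-0.54), Krtap17-1 (0.0032) and Tyrp1 (-0.0546). With both high libraries left out it turned for Krt75 (0.25), Krt31 (0.85), Krt83 (1.30), Krt25 (1.61), Krt26 (0.76), Krt71 (1.48), Krt72 (1.26), Tchh (0.72) and Tyrp1 (-0.12).

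Leaving out 1 library in turn reversed the sign of these log2 fold changes, none of them past the threshold, with the lowest and highest values Dct -0.31 to 0.47, Krt25 -1.13 to 2.65, Krt26 -1.97 to 2.53, Krt27 -1.17 to 2.63, Krt28 -0.55 to 1.88, Krt31 -1.86 to 2.40, Krt32 -0.25 to 2.71, Krt33a -1.80 to 3.32, Krt33b -3.85 to 2.21, Krt35 -0.44 to 2.38, Krt71 -1.32 to 2.66, Krt72 -2.21 to 3.22, Krt73 -0.75 to 2.40, Krt75 -0.61 to 0.73, Krt81 -2.70 to 2.23, Krt82 -0.39 to 0.75, Krt83 -1.94 to 2.92, Krt86 -2.41 to 3.05, Krtap11-1 -2.22 to 2.01, Krtap17-1 -1.40 to 1.87, Krtap3-3 -0.66 to 2.06, Krtap8-1 -2.57 to 2.78, Mki67 -0.40 to 0.13, Scd1 -0.0198 to 0.58, Tchh -1.70 to 2.02, Top2a -0.32 to 0.13, Tyrp1 -0.43 to 0.39, Vdr -0.00196 to 0.35, Wif1 -0.50 to 0.34. For Krt15, DESeq2 gave 1.26 with adjusted p = 0.0250, against 0.0708 to 0.677 over the other alternatives. Depth limits the KRTAP genes most, since 8 with counts had fewer than 10 over all libraries.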
